A study of Drosophila melanogaster with 16 samples.

Results

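Phototransduction is the signalling cascade by which fly photoreceptors turn light into an electrical response. Light converts rhodopsin to its active form, a Gq protein switches on a phospholipase C, and the breakdown of a membrane phosphoinositide opens cation channels of the TRP family. Scaffold, kinase, arrestin and lipid-recycling proteins then shape and end the response, and mutants in many of these genes lose the light response or their photoreceptors. The 10 genes described here encode the core of that cascade: the phospholipase norpA, the channels trp and trpl, the scaffold inaD with the kinases inaC and ninaC, the arrestins Arr1 and Arr2, and the recovery enzymes rdgA and rdgC. They were chosen by symbol, and all 10 were found among the 17558 genes of the files and passed the filter on low counts, which kept 13525 genes.

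Their RNA was measured in whole heads of male Drosophila melanogaster collected 5 to 8 days after eclosion from standard medium at 25 °C. The flies model the dementia (FTD) and motor neuron disease (ALS) caused by C9ORF72, and express a short (5R) or a long (160R) repeat from a transgene on chromosome 2 or chromosome 3. All flies carried a repeat transgene, and the promoter or driver, the number of independent insertions and the eye colour background are not stated in the labels. Each group is named by the chromosome and the repeat, Chrom2-5R and Chrom2-160R for one line and Chrom3-5R with Chrom3-160R for the other, and each of the 4 held 4 libraries. Total RNA was sequenced without poly(A) selection, so unspliced RNA can contribute. Separate crosses or collections are not stated for the replicates, so the spread that p-values rest on may be technical.

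Totals per library were 11452337 to 23498476 counts in Chrom2-5R flies, 19047916 to 30496479 in Chrom2-160R flies, 42854987 to 53615117 in Chrom3-5R flies and 48118158 to 49792428 in Chrom3-160R flies. Insertion line and depth therefore go together and cannot be told apart. None of the 8 photoreceptor structure and identity genes was at 0 in all libraries of any group, and their summed level was 1790 to 3300 CPM (counts relative to library size, scaled by TMM) in single libraries. The tissue also holds other cells, and markers of neurons, glia, fat body, muscle, hemocytes and cuticle were all detected. In such bulk samples, fewer photoreceptors and less RNA per photoreceptor cannot be told apart.

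The 10 genes took 1.92% to 2.23% of the counts of a Chrom2-5R library, 1.9% to 2.14% in Chrom2-160R flies, 1.53% to 1.6% in Chrom3-5R flies and 1.58% to 1.72% in Chrom3-160R flies. Levels between genes were compared per kb of merged exons. Arr2 stood highest at a mean of 2190 CPM per kb over the 16 libraries (range 1490 to 3890), followed by Arr1 at 1040 (746 to 1630) and trp at 683 (526 to 950). The Arr2 span lies inside another gene, Pex7, which shares its reads, so its place at the top holds for the reads over its span. The kinase rdgA, at 85.6 CPM per kb (68.4 to 97.1), and the phosphatase rdgC, at 55.7 (50.7 to 59.3), stood lowest. These 5 genes held the same rank in all 16 libraries. In between lay trpl at 545, ninaC at 455, norpA at 273, inaD at 241 and inaC at 241 CPM per kb. There trpl and ninaC exchanged ranks 4 and 5 between libraries, and norpA, inaC and inaD exchanged ranks 6 to 8. The ranges of these neighbours overlapped, trpl at 447 to 684 against ninaC at 356 to 622, and norpA at 247 to 314 against inaC at 206 to 285 and inaD at 207 to 294.

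**Figure D1:**
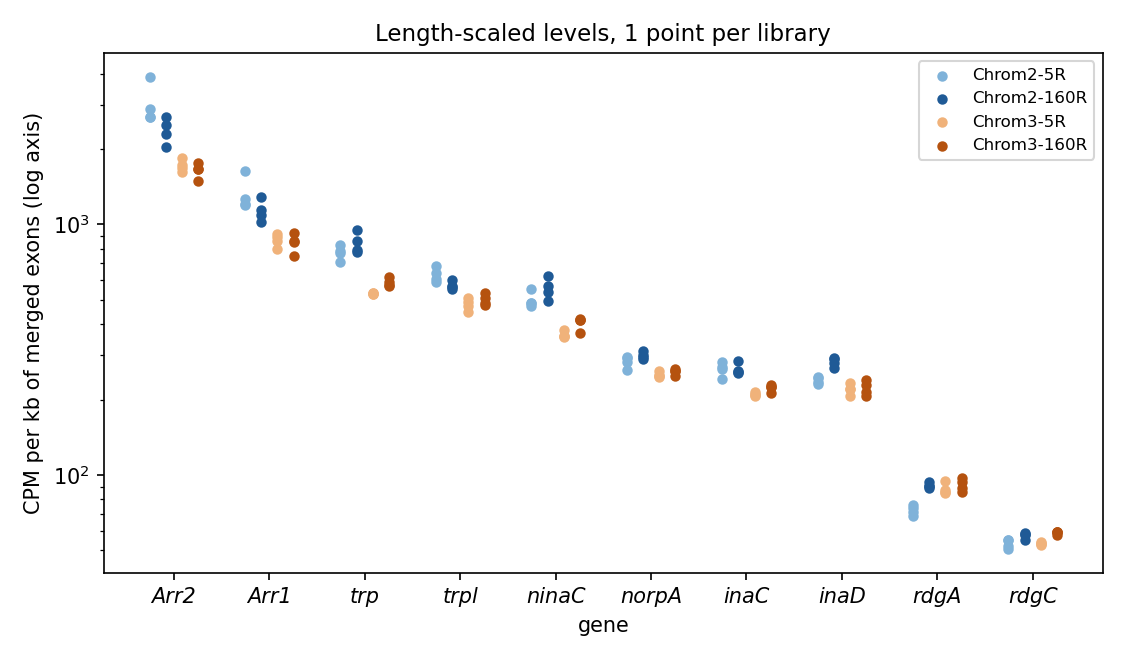
Level of each gene in CPM per kb of merged exons (log axis), 1 point per library, with the 4 groups side by side. Arr2, Arr1 and trp form the top of the order and rdgA and rdgC the bottom in all 16 libraries.

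The counts cover whole gene spans with introns, and reads of both strands entered each gene. Per kb of span instead of exons, Arr2, Arr1 and trp kept ranks 1 to 3, while ninaC moved to 4, inaC to 5, inaD to 6, trpl to 7, norpA to 8, rdgC to 9 and rdgA to 10. The genes differ widely in this respect, since exons cover 92.3% of the Arr2 span and 11.2% of the rdgA span.

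norpA encodes the phospholipase C that cleaves the membrane phosphoinositide. The gene (FBgn0262738, plus strand) lies at chrX:4322626-4365408 of BDGP6, the build of all coordinates given here. Its level was 2433, 2182, 2334 and 2445 CPM in Chrom2-5R flies, 2488, 2604, 2448 and 2416 in Chrom2-160R flies, 2149, 2047, 2059 and 2085 in Chrom3-5R flies, and 2052, 2152, 2200 and 2155 in Chrom3-160R flies. The chromosome 2 libraries were all above the chromosome 3 libraries with the same repeat, while the 5R and 160R libraries of each line overlapped. The long repeat went with a log2 change of 0.084 ± 0.044 (SE, adjusted p = 0.179) on chromosome 2 and 0.037 ± 0.044 (adjusted p = 0.756) on chromosome 3, neither of which passed the threshold of 0.05, nor did the difference between the lines (-0.047 ± 0.063, adjusted p = 0.717). Adjusted p-values throughout are from edgeR's quasi-likelihood test with Benjamini-Hochberg adjustment over the 13525 genes tested, with n = 4 libraries per group.

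trp encodes the main light-activated channel, which carries most of the calcium entry (FBgn0003861, chr3R:29914521-29920289, minus strand). Its level was 3442, 3249, 3200 and 2931 CPM in Chrom2-5R flies and 3941, 3554, 3287 and 3209 in Chrom2-160R flies. It was 2214, 2203, 2194 and 2182 in Chrom3-5R flies and 2378, 2550, 2455 and 2363 in Chrom3-160R flies. The 5R and 160R libraries overlapped on chromosome 2 and did not overlap on chromosome 3. The log2 change with the long repeat was 0.13 ± 0.061 (adjusted p = 0.14) on chromosome 2 and 0.15 ± 0.061 (adjusted p = 0.256) on chromosome 3. Neither passed the threshold, although all Chrom3-160R libraries were above all Chrom3-5R libraries, and the difference between the lines was 0.022 ± 0.086 (adjusted p = 0.92). Without Chrom2-160R replicate 1, the library highest in trp, the chromosome 2 change was 0.063.

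trpl encodes the second channel subunit, a cation channel that moves between the light-sensing membrane and the cell body with light (FBgn0005614, chr2R:9753697-9765518, plus strand). It was at 2662, 2300, 2489 and 2358 CPM in Chrom2-5R flies, 2185, 2345, 2201 and 2146 in Chrom2-160R flies, 1982, 1739, 1914 and 1836 in Chrom3-5R flies, and 1854, 2077, 1978 and 1889 in Chrom3-160R flies. Its estimates had opposite signs, -0.14 ± 0.056 (adjusted p = 0.0671) on chromosome 2 and 0.062 ± 0.056 (adjusted p = 0.662) on chromosome 3, and the difference between them, 0.21 ± 0.079, did not pass (adjusted p = 0.122). The ratio of trp to trpl counts within a library was 1.31 ± 0.073 (SD, n = 4, range 1.24 to 1.41) in Chrom2-5R flies and 1.58 ± 0.15 (1.49 to 1.8) in Chrom2-160R flies, which did not overlap. It was 1.18 ± 0.065 (1.12 to 1.27) in Chrom3-5R flies and 1.25 ± 0.024 (1.23 to 1.28) in Chrom3-160R flies, which overlapped. Differences in this ratio were not tested. In Chrom2-160R replicate 1, the library highest in trp, trp was at 3941 CPM and trpl at 2185.

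inaD encodes the PDZ scaffold that holds the channel, the phospholipase and the kinase inaC in one complex (FBgn0001263, chr2R:22855688-22858794, minus strand). It was at 572, 538, 568 and 548 CPM in Chrom2-5R flies and at 679, 685, 623 and 650 CPM in Chrom2-160R flies. Every Chrom2-160R library was above every Chrom2-5R library, and inaD rose by 0.24 ± 0.050 (log2, 1.18-fold, adjusted p = 0.00189). On chromosome 3 the levels were 542, 483, 515 and 515 CPM with 5R and 482, 559, 535 and 500 with 160R. These groups overlapped, with a log2 change of 0.015 ± 0.050 (95% interval -0.090 to 0.12, adjusted p = 0.932). The difference between the lines, -0.23 ± 0.071, did not pass (adjusted p = 0.0575). Of 25 alternative fits, 20 did not pass either (adjusted p up to 0.148). The 5 that passed included upper quartile factors, a stricter filter and DESeq2 (adjusted p 0.0341, 0.0476 and 0.0251). The inaD span shares 7 bp with the ribosomal protein gene RpL23, whose counts were 0.471 of those of inaD and which fell on chromosome 2, by 0.36 ± 0.071 (adjusted p = 0.0014).

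inaC encodes the eye-specific protein kinase C, which ends the response (FBgn0004784, chr2R:16898535-16901575, plus strand). Its levels were 665, 626, 637 and 568 CPM in Chrom2-5R flies, 603, 670, 610.0 and 605 in Chrom2-160R flies, 484, 502, 496 and 490.3 in Chrom3-5R flies, and 526, 537, 529 and 499.7 in Chrom3-160R flies. The repeat groups overlapped in both lines, with log2 changes of -0.0038 ± 0.048 (95% interval -0.10 to 0.097, adjusted p = 0.971) on chromosome 2 and 0.084 ± 0.048 (adjusted p = 0.435) on chromosome 3. The difference between the lines, 0.088 ± 0.067, did not pass (adjusted p = 0.478). inaC and inaD, whose proteins bind each other and whose levels per kb were alike, had different results on chromosome 2, where inaD passed the test and inaC did not; the difference between these 2 genes was not tested.

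ninaC encodes a protein kinase joined to a myosin motor, which binds calmodulin in the light-sensing membrane (FBgn0002938, chr2L:7377702-7384344, plus strand). It was at 2997, 2562, 2629 and 2628 CPM in Chrom2-5R flies, 3372, 3074, 2905 and 2694 in Chrom2-160R flies, 1949, 2061, 1931 and 1949 in Chrom3-5R flies, and 1994, 2282, 2254 and 2256 in Chrom3-160R flies. The repeat groups overlapped in each line. Its log2 change was 0.16 ± 0.067 on each chromosome, with an adjusted p of 0.0997 on chromosome 2 and 0.283 on chromosome 3, and neither passed. The chromosome 2 change passed without Chrom2-5R replicate 1 (0.21, adjusted p = 0.0358), the library in which ninaC stood apart from the other 5R libraries, and without Chrom2-160R replicate 4 (adjusted p = 0.0334). Without Chrom2-160R replicate 1 it was 0.096 and did not pass. The difference between the lines was -7.19e-05 ± 0.095 (adjusted p = 1).

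Arr1 and Arr2 encode the arrestins that bind active rhodopsin and stop it from signalling, and Arr1 also takes part in rhodopsin uptake from the membrane. Arr1 (FBgn0000120, chr2L:18078269-18081307, plus strand) was at 4027, 2984, 3113 and 2972 CPM in Chrom2-5R flies and 2693, 3189, 2836 and 2542 in Chrom2-160R flies. It was at 2209, 1984, 2272 and 2121 in Chrom3-5R flies and 2129, 2287, 2115 and 1847 in Chrom3-160R flies. Repeat groups overlapped in each line, and the log2 changes of -0.22 ± 0.095 (adjusted p = 0.105) on chromosome 2 and -0.036 ± 0.095 (adjusted p = 0.913) on chromosome 3 did not pass, nor did their difference (0.18 ± 0.14, adjusted p = 0.461). Without Chrom2-5R replicate 1, where Arr1 stood far above the other libraries, the chromosome 2 change was -0.10 (adjusted p = 0.386).

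Arr2 (FBgn0000121, chr3L:8647261-8648936, minus strand) was at 6014, 4162, 4458 and 4137 CPM in Chrom2-5R flies and 3858, 4160, 3544 and 3145 in Chrom2-160R flies. Chrom2-5R replicate 1 was far above the other libraries, and the highest 160R library reached the lowest 5R libraries. Arr2 fell by 0.35 ± 0.11 on the log2 scale (0.784-fold, adjusted p = 0.0259). Without Chrom2-5R replicate 1, the smallest library of the study, the change was -0.21 and no longer passed (adjusted p = 0.0761), and it also did not pass without Chrom2-160R replicate 3 (adjusted p = 0.0615) or replicate 4 (-0.28, adjusted p = 0.0715), or in a fit of only the chromosome 2 libraries (adjusted p = 0.0935). On chromosome 3 it was at 2679, 2509, 2841 and 2595 CPM with 5R and 2580, 2731, 2571 and 2305 with 160R, a log2 change of -0.061 ± 0.11 (95% interval -0.29 to 0.17, adjusted p = 0.853). The difference between the lines, 0.29 ± 0.15, did not pass (adjusted p = 0.28).

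All of the Arr2 span lies inside Pex7, a peroxisomal import receptor gene on the opposite strand (chr3L:8647145-8651011). Pex7 counts were 0.991 of Arr2 counts, and Pex7 fell as well (-0.34 ± 0.11 on chromosome 2, adjusted p = 0.026), so the same reads entered both genes and cannot be assigned to either from these files. Within a library the ratio of Arr2 to Arr1 counts was 1.39 to 1.49 in Chrom2-5R flies, 1.24 to 1.43 in Chrom2-160R flies, 1.21 to 1.26 in Chrom3-5R flies and 1.19 to 1.25 in Chrom3-160R flies. The 2 chromosome 2 groups overlapped in this ratio, and so did the 2 chromosome 3 groups.

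rdgA encodes the diacylglycerol kinase that clears one product of the phospholipase and feeds lipid recycling, and its loss causes retinal degeneration. The gene (FBgn0261549, chrX:8907068-9029476, plus strand) spans 122 kb, of which exons cover 11.2%. It was at 1016, 976, 942 and 1041 CPM in Chrom2-5R flies and at 1293, 1249, 1218 and 1249 CPM in Chrom2-160R flies. These groups did not overlap, and rdgA rose by 0.33 ± 0.049 (log2, 1.26-fold, adjusted p = 0.000123), the largest rise with the long repeat among the 10 genes.

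On chromosome 3, rdgA was at 1165, 1298, 1177 and 1197 CPM with 5R and 1183, 1223, 1290.0 and 1336 with 160R. These groups overlapped, with a log2 change of 0.057 ± 0.048 (95% interval -0.045 to 0.16, adjusted p = 0.637). rdgA was the only one of the 10 whose change differed between the lines by the interaction test (-0.28 ± 0.069, adjusted p = 0.0219). That call was lost without Chrom2-5R replicate 3 (-0.25, adjusted p = 0.0563), Chrom3-160R replicate 1 (-0.24, adjusted p = 0.0552) or Chrom3-160R replicate 2 (-0.25, adjusted p = 0.056). Chrom2-5R was the group that stood apart, with all of its libraries below the lowest library of the other 3 groups, at 1165 CPM.

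The antisense RNA gene CR43836 (chrX:8972908-9048991) overlaps 46.2% of the rdgA span and had 0.728 of its counts. It also rose on chromosome 2, by 0.34 ± 0.054 (adjusted p = 0.00022), and was not called on chromosome 3 (0.13 ± 0.054, adjusted p = 0.26). Reads over the shared 56569 bp cannot be divided between the 2 genes, and exonic and intronic reads cannot be separated.

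rdgC encodes the calcium-regulated phosphatase that removes phosphate from rhodopsin (FBgn0265959, chr3L:20248080-20265554, plus strand). It was at 277, 269, 293 and 292 CPM in Chrom2-5R flies and 291, 308, 310.2 and 307 in Chrom2-160R flies, and at 284, 280.0, 278 and 288 in Chrom3-5R flies and 313, 306, 314 and 313 in Chrom3-160R flies. The groups overlapped on chromosome 2 and did not overlap on chromosome 3. rdgC rose by 0.11 ± 0.035 (log2, 1.08-fold, adjusted p = 0.0336) on chromosome 2 and by 0.14 ± 0.035 (1.1-fold, adjusted p = 0.0422) on chromosome 3, so it was called in each line. Both calls lay near the threshold, and their difference was 0.036 ± 0.050 (adjusted p = 0.723). The chromosome 2 call was lost on leaving out replicate 1 or 2 of Chrom2-5R, or replicate 2, 3 or 4 of Chrom2-160R (adjusted p from 0.0747 to 0.12). It was also lost in a fit of only the chromosome 2 libraries (0.134) and without the filter on low counts (0.0788). The chromosome 3 call was lost on leaving out any 1 of the 8 chromosome 3 libraries (0.0886 to 0.173) and after thinning (0.0695).

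**Figure D2:**
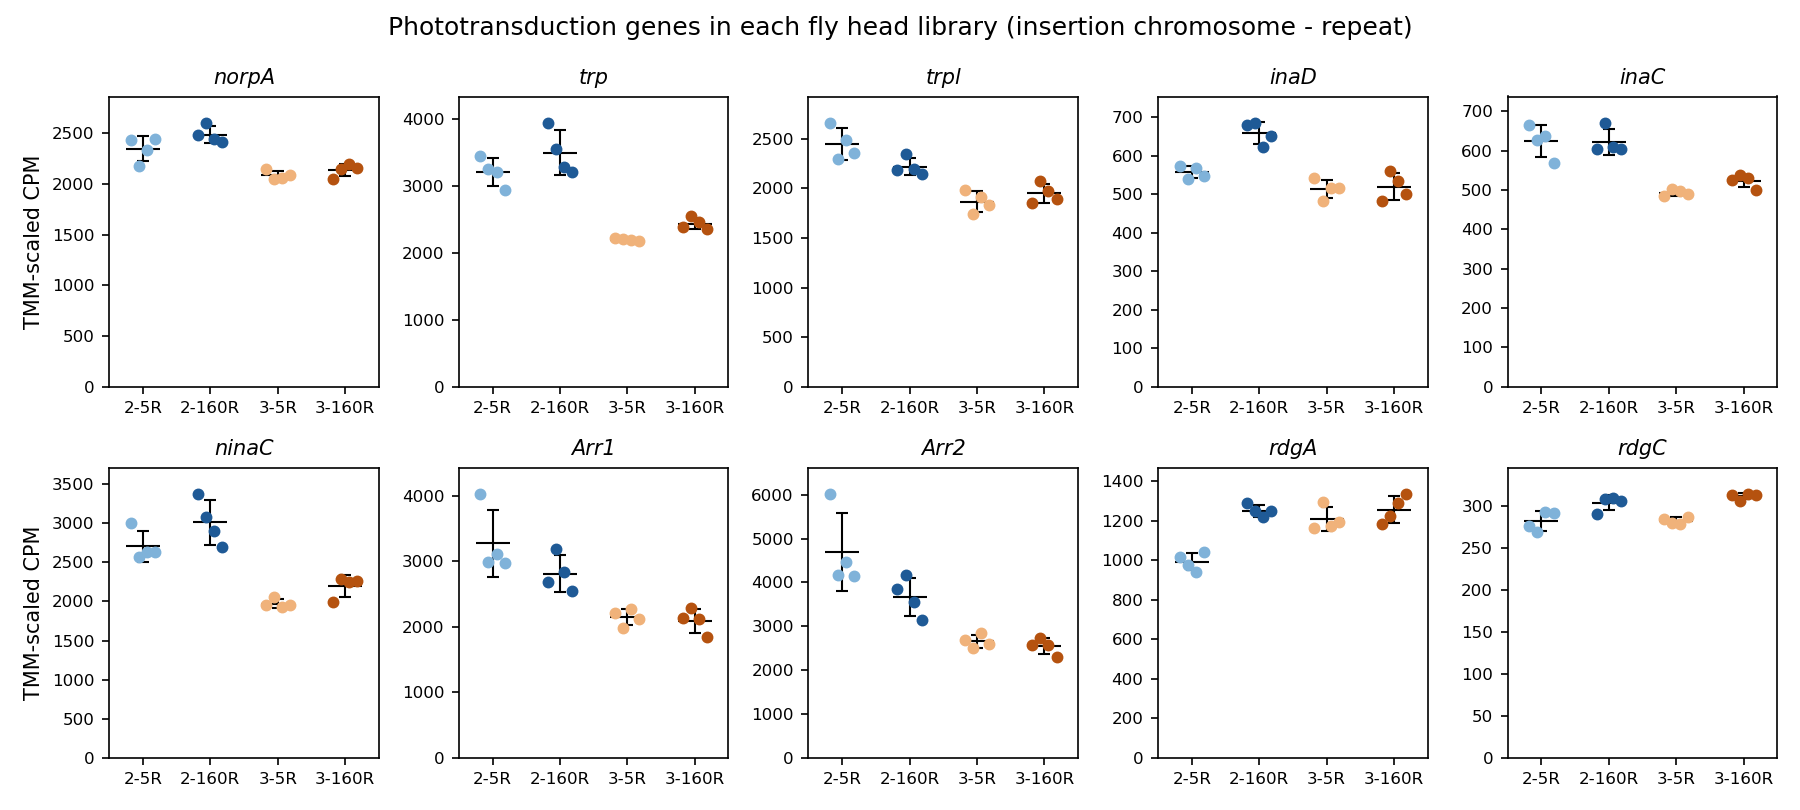
Level of each gene in TMM-scaled CPM (axis from 0), 1 point per library, with the mean and SD of each group of 4. inaD and rdgA were higher in all Chrom2-160R libraries than in all Chrom2-5R libraries, and trp, trpl, inaC, ninaC, Arr1 and Arr2 were lower in the chromosome 3 groups.

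With the long repeat on chromosome 2, then, 3 of the 10 genes rose (inaD, rdgA and rdgC) and 1 fell (Arr2), against 26.1% of all genes tested called either way (12.8% higher and 13.3% lower). Among the 766 genes at or above 295 CPM, the mean of the lowest of the 10, 45.8% were called, so the share called among the 10 (40%) was near this background. Of the 10, 2 (inaD and rdgA) had groups that did not overlap, with 160R higher, against 22.6% of all genes (11.9% higher). The median log2 change was 0.095 over the 10, 0.011 over all genes and 0.023 over the 766.

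With the long repeat on chromosome 3, 1 of the 10 (rdgC) rose and 0 fell by edgeR, DESeq2 or limma-voom, against 2.11% of all genes called (0.673% higher and 1.43% lower) and 1.96% of the 766 abundant genes. At an unadjusted p below 0.05, 3 of the 10 were higher and 0 lower. trp and rdgC had groups that did not overlap, with 160R higher, against 11.5% of all genes (5.7% higher). The median log2 change was 0.059 over the 10 and -0.026 over the abundant genes. In the test of the difference between the lines, 1 of the 10 (rdgA) was called, against 7.27% of all genes (3.9% higher and 3.36% lower) and 15.5% of the abundant genes.

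**Figure D3:**
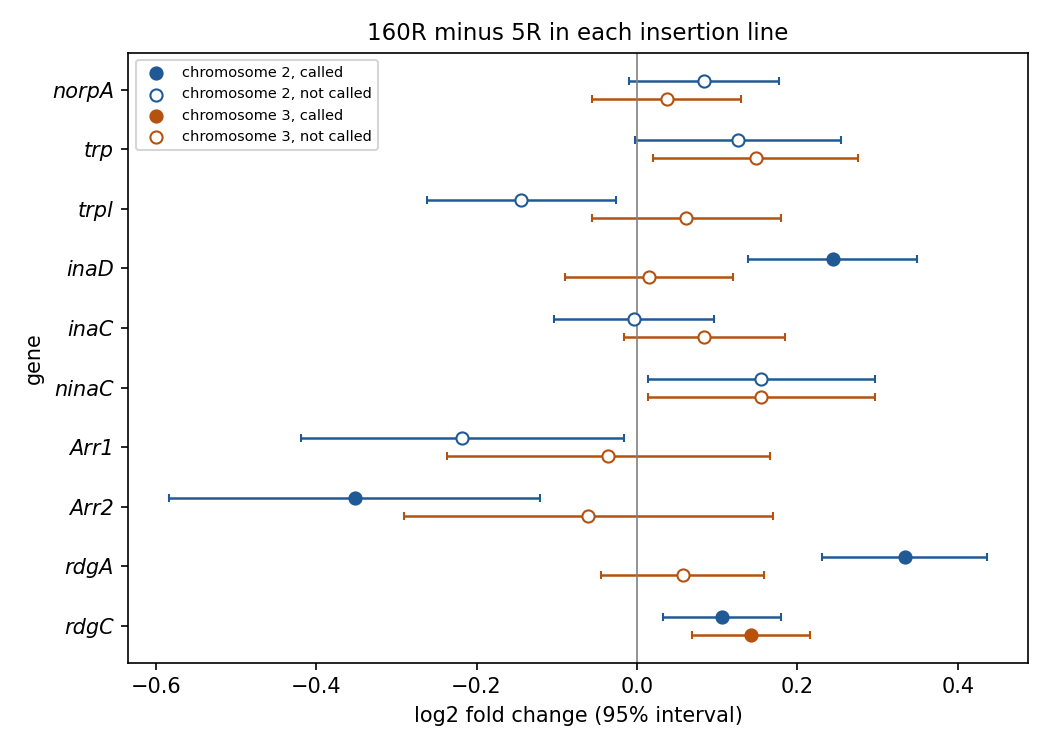
Log2 change from 5R to 160R for each gene on chromosome 2 and chromosome 3, with 95% intervals from the edgeR fit; filled points passed the adjusted threshold. inaD, rdgA, rdgC and Arr2 are filled for chromosome 2 and rdgC alone for chromosome 3.

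Other tissues of the head differed between the same groups. Over the whole marker lists, the summed level of 4 fat body genes was 9270 to 10700 CPM in Chrom2-5R flies and 5540 to 6660 in Chrom2-160R flies, that of 7 muscle genes was 2850 to 3380 and 3920 to 7700, and that of 5 cuticle genes was 43.4 to 91.4 and 345 to 1310. The 7 neuronal genes summed to 4850 to 5190 and 5090 to 5540 CPM, and the 8 photoreceptor structure genes to 2330 to 2510 and 2770 to 3300. The photoreceptor gene ninaE, not among these 8, went the other way, at 6120 to 11500 CPM in Chrom2-5R flies and 4140 to 5530 in Chrom2-160R flies. On chromosome 3 the photoreceptor structure genes summed to 1790 to 2130 CPM with 5R and 2050 to 2370 with 160R, and fat body to 9230 to 10300 and 7220 to 8150. No gene of these lists was at 0 in all libraries of a group. Without Chrom2-160R replicate 1 and Chrom3-160R replicate 4, the libraries highest in cuticle and muscle genes, the chromosome 2 changes were 0.31 (rdgA), 0.22 (inaD), 0.12 (rdgC) and -0.39 (Arr2), and all 4 passed (adjusted p 0.00018, 0.00639, 0.0318 and 0.0381). In the same fit the changes of trp and ninaC were 0.052 and 0.085, the rise of rdgC on chromosome 3 no longer passed (adjusted p = 0.0658), and neither did the lower trpl level in Chrom3-160R against Chrom2-160R (adjusted p = 0.0675). The part of the other tissues in these results was not tested.

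Most of these genes were lower in the chromosome 3 line, whatever the repeat. Between Chrom3-5R and Chrom2-5R, 7 of the 10 were lower on chromosome 3 and 1 (rdgA) higher, against 30.3% of all genes called (14.9% lower and 15.4% higher) and 53.1% of the abundant genes (36.4% lower). The same 8 genes had groups that did not overlap, against 30.6% of all genes. Between Chrom3-160R and Chrom2-160R, 8 of the 10 were lower and 0 higher by edgeR, DESeq2 or limma-voom, against 22.5% of all genes called (10.7% lower and 11.8% higher) and 44.1% of the abundant genes (36.8% lower), and 8 had groups that did not overlap, against 24.1%. The median log2 difference over the 10 was -0.37 with 5R and -0.30 with 160R, against -0.073 and -0.092 over the abundant genes.

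Among the 5R flies the arrestins differed most, Arr2 at 4693 ± 893 CPM (SD) in Chrom2-5R flies and 2656 ± 141 in Chrom3-5R flies (0.566-fold, log2 -0.82 ± 0.11, adjusted p = 4.97e-05) and Arr1 at 3274 ± 506 and 2146 ± 125 CPM (0.656-fold, adjusted p = 0.000181). The channel genes were lower as well, trp at 0.686-fold (log2 -0.54 ± 0.061, adjusted p = 7.21e-06) and trpl at 0.762-fold (-0.39 ± 0.056, adjusted p = 6.39e-05). ninaC (-0.46 ± 0.067), inaC (-0.34 ± 0.048) and norpA (-0.17 ± 0.044) were lower with adjusted p-values of 9.11e-05, 5.83e-05 and 0.00719. Against this, rdgA was 1.22-fold higher on chromosome 3 (0.28 ± 0.049, adjusted p = 0.000336), rdgC stood at 282 ± 11.6 and 283 ± 4.19 CPM (adjusted p = 0.995), and the inaD difference of -0.12 ± 0.050 did not pass (adjusted p = 0.0892).

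Among the 160R flies the differences were -0.53 ± 0.11 for Arr2 (adjusted p = 0.00272), -0.52 ± 0.061 for trp (1.87e-05), -0.46 ± 0.067 for ninaC (0.000158), -0.43 ± 0.095 for Arr1 (0.00449) and -0.35 ± 0.050 for inaD (0.00013). Smaller differences that passed were those of inaC (-0.25 ± 0.048, adjusted p = 0.00129), norpA (-0.22 ± 0.044, 0.00208) and trpl (-0.19 ± 0.056, 0.0226). The trpl call was lost without Chrom2-160R replicate 2, Chrom3-160R replicate 1 or Chrom3-160R replicate 4 (adjusted p 0.0725 to 0.0888). rdgA (0.0066 ± 0.048, 95% interval -0.096 to 0.11) and rdgC (0.037 ± 0.035) were not called, so rdgA differed between the lines with 5R and was not found to differ with 160R. The 2 line comparisons and the 2 repeat comparisons share their libraries in pairs, so they are not independent of each other. Thinning every library to the smallest total left each of these 16 line calls in place, for example -0.82 for Arr2 and -0.54 for trp among the 5R flies.

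**Figure D4:**
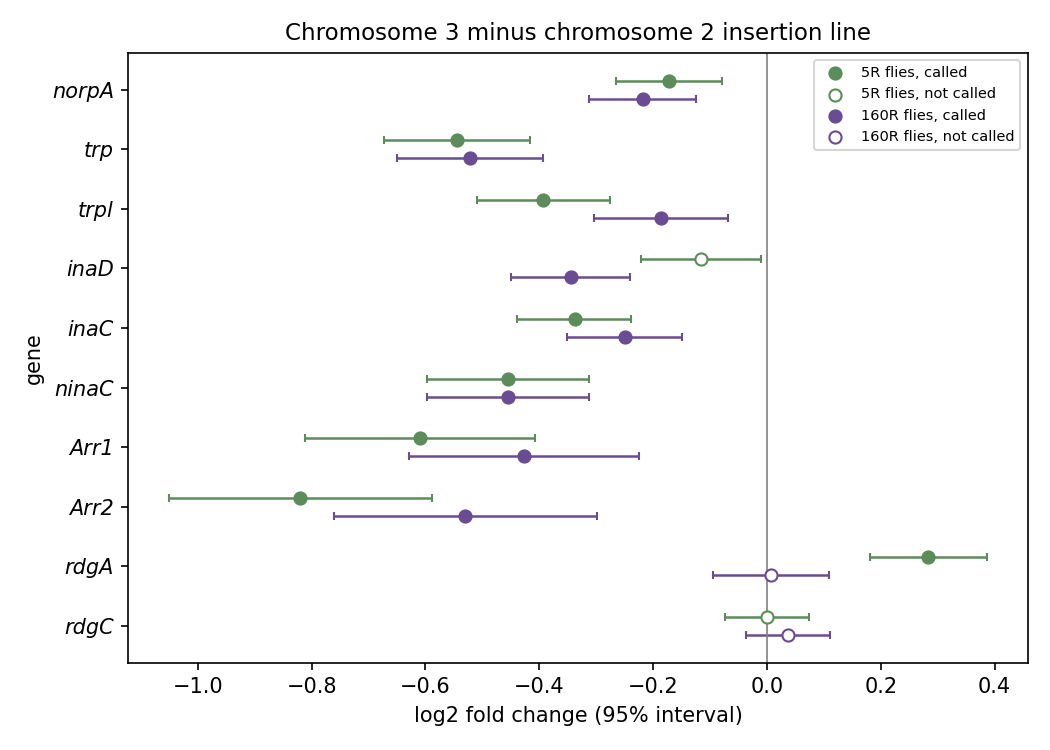
Log2 difference between the chromosome 3 and chromosome 2 lines for each gene, in 5R and in 160R flies, with 95% intervals; filled points passed the adjusted threshold. 7 genes lie below 0 with filled points among the 5R flies and 8 among the 160R flies, while rdgA lies above 0 among the 5R flies only.

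Between the group with the highest and the group with the lowest mean, Arr2 ranged 1.84-fold, trp 1.59-fold, Arr1 1.56-fold and ninaC 1.53-fold. The other genes ranged 1.31-fold (trpl), 1.28-fold (inaD), 1.27-fold (rdgA), 1.26-fold (inaC), 1.19-fold (norpA) and 1.1-fold (rdgC). Most were highest in a chromosome 2 group, and rdgA and rdgC were highest in Chrom3-160R flies and lowest in Chrom2-5R flies. The spread within a group was a coefficient of variation of 2.91% to 19% over the 10 genes in Chrom2-5R flies, 2.44% to 11.8% in Chrom2-160R flies, 0.602% to 5.81% in Chrom3-5R flies and 1.16% to 8.71% in Chrom3-160R flies. In Chrom2-160R, 9 or 10 of the 10 genes were above their own mean over the 16 libraries in each library, and in Chrom3-5R flies 0 or 1 were.

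The remaining genes of the light response were described from a list of 22. On chromosome 2, 8 of the 22 rose with the long repeat and 2 fell, with a median log2 change of 0.072, against 26.1% of all genes and 45.8% of abundant genes called. Several of the 22, such as laza, inaE and Xport, lay below the 295 CPM of the abundant set. Galphaq, the G protein subunit that activates norpA, went from 687 ± 27.6 to 817 ± 58.0 CPM (0.25 ± 0.050, adjusted p = 0.00152). CdsA and Pis, which resynthesise phosphoinositide, rose by 0.30 ± 0.054 and 0.24 ± 0.046, and the lipid transfer gene rdgB by 0.16 ± 0.042 (adjusted p 0.000759, 0.0012 and 0.0118). Other lipid genes of the list did not pass, PIP5K59B at -0.093 ± 0.055, PI4KIIIalpha at 0.071 ± 0.042 and laza at -0.062 ± 0.091. The sodium and calcium exchanger Calx rose by 0.23 ± 0.046 (adjusted p = 0.00141), and calmodulin (Cam) by 0.18 ± 0.063, close to the threshold (adjusted p = 0.0496). The kinase CaMKII rose by 0.45 ± 0.064 (adjusted p = 0.00011), and Xport, a chaperone for trp and rhodopsin, by 0.39 ± 0.061 (adjusted p = 0.000238).

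The genes that fell were ninaA, the chaperone of the main rhodopsin (160 ± 28.9 to 105 ± 6.83 CPM, log2 -0.60 ± 0.13, adjusted p = 0.00478), and stops, which keeps up norpA protein (-0.32 ± 0.054, adjusted p = 0.000427). Overlapping genes with much of the same reads were CG45086 for Galphaq (0.867 of its counts), CG42508 for Xport (1), CG15824 for ninaA (1.01) and Gycbeta100B for stops (2.37). On chromosome 3, 0 of the 22 were called by edgeR, DESeq2 or limma-voom, with a median log2 change of 0.077, and 6 were higher and 1 lower at an unadjusted p below 0.05. The interaction test called stops (0.34 ± 0.076, adjusted p = 0.0135) and CaMKII (-0.45 ± 0.090, adjusted p = 0.00655) among the 22.

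Of the 7 rhodopsin genes, 4 fell and 0 rose with the long repeat on chromosome 2 by edgeR, DESeq2 or limma-voom (6 lower and 0 higher at an unadjusted p below 0.05), against 13.3% of all genes called lower, with a median log2 change of -0.25. Among the abundant genes 45.8% were called either way on chromosome 2, though Rh2, Rh5 and Rh7 lay below the 295 CPM of that set. The place of the rhodopsins among genes of like length was not tested. ninaE, the rhodopsin of the outer photoreceptors, went from 8280 ± 2300 CPM (range 6120 to 11500) to 4810 ± 574 (4140 to 5530), a log2 change of -0.78 ± 0.15 (adjusted p = 0.00137). Rh4 (-0.30 ± 0.066), Rh6 (-0.27 ± 0.069) and Rh2 (-0.25 ± 0.054) also fell (adjusted p 0.00346, 0.0087 and 0.00263). On chromosome 3, 0 of the 7 were called by edgeR and 1 each by DESeq2 and limma-voom (1 at an unadjusted edgeR p below 0.05), and ninaE was at 3640 ± 239 and 3380 ± 198 CPM (-0.11 ± 0.15, adjusted p = 0.796). The rhodopsin Rh7 was the 1 of the 7 called by the interaction test (0.31 ± 0.075, adjusted p = 0.019). Between the lines, 5 of 7 rhodopsins and 10 of the 22 cascade genes were lower in Chrom3-5R flies than in Chrom2-5R flies, and 0 and 2 were higher, against 14.9% of all genes lower and 15.4% higher. In 160R flies, 4 of 7 rhodopsins and 10 of the 22 were lower on chromosome 3 and 1 of each was higher, against 10.7% of all genes lower and 11.8% higher, and the rhodopsin that was higher was Rh7 (0.24 ± 0.053, adjusted p = 0.004). Of the abundant genes, 36.4% were lower on chromosome 3 among the 5R flies and 36.8% among the 160R flies.

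Of the 8 photoreceptor structure and identity genes, 5 rose with the long repeat on chromosome 2 (median 0.23), against 12.8% of all genes called higher, and 0 fell by edgeR, DESeq2 or limma-voom or at an unadjusted p below 0.05. ninaE, also a photoreceptor marker, was counted with the rhodopsins and not among these 8. It fell on chromosome 2 (log2 -0.783 ± 0.145, adjusted p = 0.00137 by edgeR). prom, which helps to keep the light-sensing membranes apart, rose by 0.45 ± 0.044 (101 ± 3.42 to 138 ± 6.10 CPM, adjusted p = 2.3e-06). On chromosome 3, 1 of the 8 rose, CG9317, the carcinine transporter gene CarT (42.2 ± 1.44 to 50.9 ± 1.92 CPM, 0.27 ± 0.048, adjusted p = 0.00432), while DESeq2 called 3 higher and limma-voom 2, and 4 were higher at an unadjusted p below 0.05. Of all genes, 0.673% were called higher with the long repeat on chromosome 3. In both line comparisons 5 of the 8 were lower on chromosome 3 and none was higher. Among all genes 14.9% were called lower with 5R and 10.7% with 160R, and among the abundant genes 36.4% and 36.8%. Of the 8, prom, Pph13, gl, oc, CG9317 and Hdc lay below the 295 CPM of the abundant set, so its shares are not from genes of like level.

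The changes also went with transcript length, which was read over the 718 of 766 abundant genes with an exon length (93.7%). On chromosome 2 the median log2 change was -0.31 for 34 genes under 1 kb of exons, -0.27 for 90 genes of 1 to 2 kb, -0.012 for 168 genes of 2 to 4 kb, 0.066 for 189 genes of 4 to 8 kb and 0.042 for 237 longer genes. Between Chrom3-5R and Chrom2-5R these medians were -0.51, -0.42, -0.20, -0.047 and 0.011. On chromosome 3 they lay between -0.046 and 0.0068.

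Arr2, the shortest of the 10 at 1.55 kb, had a repeat effect of -0.35 on chromosome 2 beside a median of -0.27 in its length class, inside the quartiles of that class (-0.40 to 0.065). inaD, at 2.33 kb, and rdgA, at 13.8 kb, were above the upper quartile of their classes, 0.15 and 0.11, while rdgC, at 5.3 kb, lay inside the quartiles of its class (-0.028 to 0.16). The genes not called on chromosome 2 (trp, trpl, norpA, inaC, Arr1 and ninaC) all lay inside the quartiles of their classes as well. In the comparison of 5R flies, the 7 genes that were lower on chromosome 3 were all below the lower quartile of their classes: Arr2, inaC at 2.35 kb, Arr1 at 2.48 kb, trpl at 3.89 kb, trp at 4.15 kb, ninaC at 5.42 kb and norpA at 8.3 kb. In the comparison of 160R flies, inaC (-0.25) and trpl (-0.187) lay inside the quartiles of their class (-0.252 to 0.0365). The other genes called lower there lay below the lower quartile of theirs. The part of length in these results was not tested.

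**Figure D5:**
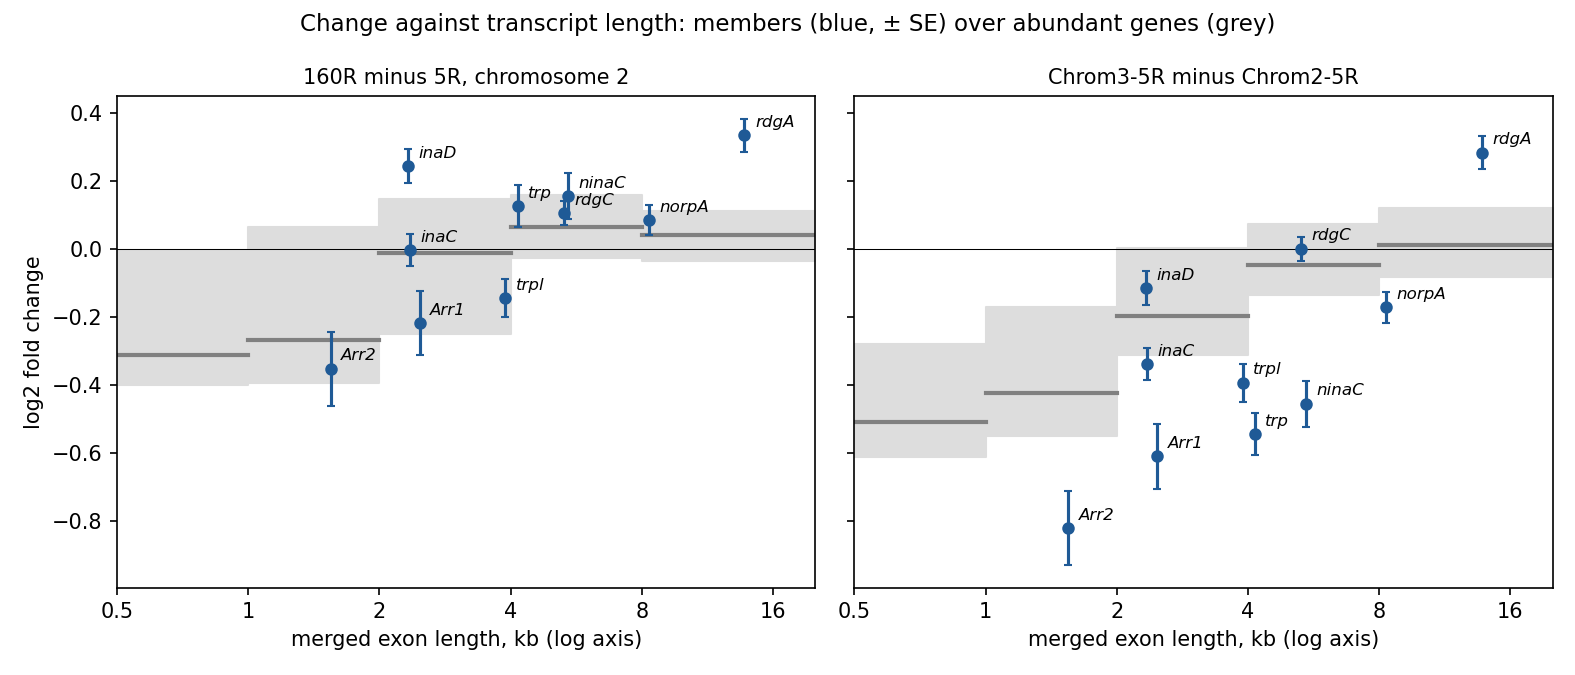
Log2 change against merged exon length in kb (log axis) for the 10 genes (points ± SE), over the median (line) and quartiles (band) of abundant genes in 5 length classes, for 160R minus 5R on chromosome 2 and for Chrom3-5R minus Chrom2-5R. The medians of genes under 2 kb lie below 0 in each panel, Arr2 lies inside its band on the left, and rdgA lies above its band in each.

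The genes most like the 10 were found by Pearson's r of log2 CPM over the 16 libraries, which share line, depth and repeat, and are given as a description. The mean of the 10 was most like 7B2 (r = 0.979), CG2269 (0.979) and CR42862 (0.976). After each group's mean was removed, these fell to 0.878, 0.838 and 0.848, and the 3 most like were instead Pex7, CG14190 and CR45305. Pex7 shares the reads of Arr2, which is part of that mean, so its likeness is in part that of Arr2 to itself. Arr2 was most like Pex7 (1), which shares its reads, Arr1 (0.987) and the small nuclear RNA gene snRNA:7SK (0.98). Within groups snRNA:7SK was at 0.891, and CR45305 (0.939) took its place. rdgA was most like LanA (0.964), NimA (0.957) and CG1674 (0.954), at 0.794, 0.81 and 0.777 within groups. The 3 most like rdgA within groups were instead CR43836 (0.927), which shares its reads, CG17104 (0.925) and ckd (0.903). NimA had a low level, with group means from 1.57 CPM (Chrom2-5R) to 2.65 CPM (Chrom3-160R). Among the 10 themselves, Arr1 and Arr2 were most alike (0.987), followed by trp and ninaC (0.974), and Arr2 and rdgA most opposed (-0.688 over all libraries, -0.119 within groups).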

How the data were processed

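The deposited files hold the authors' whole-number read counts per gene, not normalised, for 16 libraries. Per the submitters' processing notes, Trimmomatic, STAR, bedtools and DESeq and the builds BDGP6 and mm10 were used; their versions and roles are not stated there. Per the labels' protocols, libraries kept the strand and had no poly(A) selection. Coordinates are on BDGP6, counted from 1. In 1619 of 1624 nested pairs on opposite strands with at least 100 counts the inner gene had no more counts than its host, so reads of both strands entered each gene.

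The test was edgeR 4.0.16 (R 4.3.3) with filterByExpr, TMM and a robust glmQLFit over all 16 libraries as 4 group means; a gene was called when its Benjamini-Hochberg adjusted p was below 0.05. The biological coefficient of variation was 0.106. The script was tested on simulated data. The 10 genes, the lists and the alternatives were chosen with earlier results of these data known. All 10 genes are named in every comparison, list genes where called in a repeat comparison (for marker lists, the largest change), and overlapping genes at 0.25 or more of a gene's counts. Exon lengths came from the Ensembl release 115 annotation, where all 10 spans were identical. Alternatives used limma 3.58.1 and DESeq2 1.42.0. No genome sequence was used here.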

Additional observations from a re-analysis of the deposited data

Results flagged for a closer look

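In 40 sets of 4 libraries (10 genes in 4 groups), 6 held a library far from the other 3, with a gap above Dixon's 95% critical value. Chance gives about 1 in 20 for independent sets. The 10 genes were read in the same libraries, so these sets are not independent and the 6 cannot be read as an excess. Arr1 was at 4030 CPM in Chrom2-5R replicate 1 against 2970 to 3110 in the others, and ninaC at 3000 CPM in the same library against 2560 to 2630. inaC was at 670 CPM in Chrom2-160R replicate 2 against 603 to 610. ninaC was at 2060 CPM in Chrom3-5R replicate 2 against 1930 to 1950, and at 1990 CPM in Chrom3-160R replicate 1 against 2250 to 2280. rdgC was at 306 CPM in Chrom3-160R replicate 2 against 313 to 314.

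rdgA was the 1 gene of the 10 whose change with the long repeat differed between the insertion lines by edgeR's interaction test, with a log2 difference of -0.28 (chromosome 3 minus chromosome 2, adjusted p = 0.0219).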

How the results depend on the processing

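Of the 50 log2 changes (10 genes in 5 comparisons), 22 were called. Under 403 alternatives to these calls (other scaling, filters, tools, samples, thinning, libraries left out), 372 kept direction and call, 31 lost the call and 0 reversed. inaD and rdgA on chromosome 2 were called under all 18 alternatives (adjusted p up to 0.00866 and 0.0018). The number of the 10 called on chromosome 2 (4) was 2 in a fit of only the 2 groups compared and 2 to 4 on leaving out 1 library. The number rose to 6 with upper quartile factors, which added trp and ninaC, and DESeq2 added trpl. On chromosome 3 (1) it was 0 with upper quartile factors, without a filter, with a replicate block, after thinning, without the libraries highest in cuticle and muscle genes, and 0 in each of the 8 fits that left out 1 library. In the interaction test (1) it was 2 with upper quartile factors, the stricter filter or DESeq2 (inaD added each time) and 0 to 2 on leaving out 1 library. A fit of only the groups compared does not apply to the interaction, which uses all 4. Between the lines it stayed at 8 to 9 with 5R and 7 to 8 with 160R.

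Same-numbered libraries did not deviate together (r from -0.25 to 0.2), and a replicate block gave 4, 0, 1, 8 and 8 of the 10 called in the 5 comparisons; all genes called by the interaction fell from 983 to 647. Over all alternatives that count was 584 to 1695, 157 to 541 on chromosome 3 (285 in the report) and 2293 to 3779 on chromosome 2 (3535); the cause was not tested. Changes of the 10 not called before were called in 12 of 567 alternatives: on chromosome 2 trp (upper quartile, adjusted p = 0.043), trpl (DESeq2, 0.0334; without Chrom2-5R replicate 2, 0.0468) and ninaC (upper quartile, 0.0279; without Chrom2-160R replicate 4, 0.0334, or Chrom2-5R replicate 1, 0.0358), the inaD interaction (upper quartile, 0.0341; stricter filter, 0.0476; DESeq2, 0.0251; without Chrom3-5R replicate 2, 0.0492, or Chrom3-160R replicate 2, 0.0487), and inaD between the 5R groups without Chrom3-5R replicate 1 (0.0481).

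Changes near 0, none called, turned sign. inaC on chromosome 2 was 0.0415 with upper quartile factors, 0.000565 with the stricter filter, 0.00265 thinned and -0.0448 to 0.028 on leaving out 1 library. On chromosome 3, Arr1 was 0.0159 without the cuticle and muscle libraries and -0.0839 to 0.0168 on leaving out 1, and inaD -0.0265 to 0.0419. The interaction of ninaC was 0.0027 (RLE), 0.00268 (DESeq2), 0.000144 (voom), 0.00288 (replicate block), 0.00199 (thinned), 0.0532 (without both libraries) and -0.0532 to 0.0614 on leaving out 1; that of trp was -0.0262 and of rdgC -0.0143 with upper quartile factors, and of trp -0.0165 to 0.0871 on leaving out 1. rdgC between the 5R groups was -0.0074 (RLE), -0.00822 (DESeq2), -0.00516 (only these groups), -0.000429 (thinned) and -0.0213 to 0.0205. rdgA between the 160R groups was -0.0101 (upper quartile), -0.00718 (thinned), -0.000876 (without both libraries) and -0.0142 to 0.0409. The cause was not tested.

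Standard errors of the repeat changes ran from 0.035 (rdgC) to 0.11 (Arr2), and depth was lowest in Chrom2-5R.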

Other observations

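Of the 6 genes that take up carotenoids and make the visual chromophore, 2 rose and 2 fell with the long repeat on chromosome 2. The carotenoid receptor ninaD changed most (log2 1.36 ± 0.22, adjusted p = 0.000654 by edgeR), and was at 0.74 ± 0.20 on chromosome 3 (adjusted p = 0.0801), where 0 of the 6 were called by edgeR and 1 each by DESeq2 and limma-voom (1 at an unadjusted edgeR p below 0.05). Of 6 pigment and cone cell genes, 3 rose and 1 fell on chromosome 2, most of all the lens protein gene Cry (1.02 ± 0.31, adjusted p = 0.028). Of 8 clock genes, 2 rose and 1 fell there, the blue-light photoreceptor cry by 0.64 ± 0.073 (adjusted p = 1.44e-05). The cry span overlaps vib, which had 0.92 of its counts. Beside these chromophore, pigment and clock lists, 12.8% of all genes were called higher on chromosome 2 and 13.3% lower. Among the abundant genes 45.8% were called either way there, though not every gene of these lists reached the level of that set.

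Among markers of other head tissues on chromosome 2, 3 of 7 neuronal genes rose (most, Syt1, 0.24 ± 0.044), 2 of 7 glial genes (alrm, 0.36 ± 0.078), 4 of 7 muscle genes (up, 0.99 ± 0.24) and 4 of 5 cuticle genes (CG7214, 6.07 ± 1.55). Of 4 fat body genes 3 fell (Yp1, -1.70 ± 0.51), and of 4 hemocyte genes 1 fell (srp, -0.36 ± 0.093). Of all genes, 12.8% were called higher and 13.3% lower on chromosome 2, and 2.11% either way on chromosome 3. Of the abundant genes, 45.8% were called either way on chromosome 2, though not every gene of these marker lists reached the level of that set. On chromosome 3 edgeR called 2 genes of these lists, alrm (0.31 ± 0.076, adjusted p = 0.0468) and the fat body lipoprotein gene Rfabg (-0.26 ± 0.061, adjusted p = 0.0333), while DESeq2 called 2 glial genes higher and 2 fat body genes and 1 neuronal gene lower, and limma-voom 2 glial genes higher and 1 fat body gene lower. The alrm span overlaps Fur1, which had 5.04 times its counts, Yp1 overlaps CR45601 (0.631 of its counts) and srp overlaps CR44133 (0.345).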
